A study of Mus musculus with 8 samples.

Results

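The endothelial genes examined in the fetal ovary were *Pecam1*, *Cdh5*, *Emcn*, *Vegfa*, *Kdr*, *Flt1*, *Tek*, *Tie1*, *Acvrl1* and *Eng*. They were chosen by gene symbol, as genes of endothelial identity and of VEGF and ALK1 signalling. All 10 were found among the 25239 gene symbols of the count files, and all 10 passed the filter on low counts with the 14249 genes tested. RNA-Seq had been performed on whole E14.5 ovaries of C57BL/6 mice, with 4 libraries of the *Bmpr1a* fl/fl control genotype and 4 of the conditional knockout, called *Bmpr1a*-cKO (*Bmpr1a* fl/fl; *Oct4-Cre* Cre/WT). Every library was a separate pool of the ovaries of 2 embryos. Both genotypes carried 2 floxed *Bmpr1a* alleles, and both were exposed in utero to 4-hydroxytamoxifen (1 mg to the dam) with progesterone (0.5 mg) on 9.5, on 10.5 and on 11.5 dpc, which activates the inducible Cre. The *Oct4* sequences restrict that Cre to the germ cells, so endothelial cells of both genotypes were meant to keep BMPR1A, and the libraries contain the RNA of all ovarian cell types. The sources do not assign the libraries to the 6 litters used. None of the 10 genes passed the test between genotypes (FDR below 0.05; edgeR quasi-likelihood test), against 29.8% of all genes tested.

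Endothelial cells line the blood vessels. VEGFA, which is secreted mainly by the cells around a vessel, binds the receptor kinase KDR, the main transmitter of its signal, and FLT1, which binds VEGFA tightly and limits what reaches KDR. TEK is the angiopoietin receptor and TIE1 is its partner, and both stabilise vessels. ACVRL1 (ALK1) is the type I receptor through which circulating BMP ligands act on endothelium, with ENG (endoglin) as its co-receptor, so it belongs to the receptor family that also includes BMPR1A. CDH5 (VE-cadherin) and PECAM1 lie at endothelial cell junctions, and EMCN (endomucin) coats the surface of capillaries and veins. In the fetal gonad PECAM1 is also present on germ cells, so *Pecam1* is not a purely vascular measure in this tissue.

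The stretches just upstream of 4 of the receptor genes are shown because ETS factors, which recognise a GGAA core, are known regulators of endothelial genes. RefSeq promoters (build GRCm38.p6, which is mm10) were matched for 7 of the 10 genes. Printed 5′ to 3′ are bases 250 to 13 before the annotated start, with matches to the ETS core GGAAG, searched on both strands, in capitals (a match on the other strand reads CTTCC). The positions are chr5:75978468-75978705 for *Kdr* (minus strand), chr5:147726024-147726261 for *Flt1* (minus strand), chr4:94739039-94739276 for *Tek* (plus strand) and chr2:32646345-32646582 for *Eng* (plus strand).
Kdr: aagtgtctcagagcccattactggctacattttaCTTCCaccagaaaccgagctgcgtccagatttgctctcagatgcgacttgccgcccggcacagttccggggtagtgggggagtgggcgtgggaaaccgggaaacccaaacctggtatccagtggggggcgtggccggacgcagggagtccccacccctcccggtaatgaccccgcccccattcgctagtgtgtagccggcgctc
Flt1: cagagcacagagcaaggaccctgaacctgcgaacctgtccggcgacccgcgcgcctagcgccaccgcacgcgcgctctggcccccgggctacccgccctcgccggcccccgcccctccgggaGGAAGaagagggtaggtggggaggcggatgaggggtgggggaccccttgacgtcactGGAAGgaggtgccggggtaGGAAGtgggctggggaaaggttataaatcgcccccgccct
Tek: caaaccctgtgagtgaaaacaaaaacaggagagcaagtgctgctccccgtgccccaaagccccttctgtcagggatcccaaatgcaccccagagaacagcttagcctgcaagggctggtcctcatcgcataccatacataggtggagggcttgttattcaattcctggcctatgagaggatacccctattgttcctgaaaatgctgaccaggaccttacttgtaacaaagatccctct
Eng: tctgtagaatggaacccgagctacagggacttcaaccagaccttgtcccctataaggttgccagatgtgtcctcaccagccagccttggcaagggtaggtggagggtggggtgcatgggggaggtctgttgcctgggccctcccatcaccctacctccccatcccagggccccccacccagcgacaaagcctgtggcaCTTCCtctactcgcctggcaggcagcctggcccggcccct
In the full 250 bases before the start, *Flt1* had 3 matches to GGAAG, *Eng* 2, *Kdr* 1 and *Tek* 0. Other GGAA cores, which the printed stretches also hold, were not counted. *Tie1* had 6 and *Emcn* 2, and each of the 2 annotated starts of *Vegfa* had 1. GGAAG was present in 64.1% of 32841 promoters of the same length. The hypoxia response core ACGTG was found once, before the downstream start of *Vegfa*, against 16.6% of all promoters. A match is a description of the letters and was not tested as a binding site.

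The depth was 8562961 to 15365052 counts per library, and each of the 10 genes had 112 to 1870 counts in each library. *Bmpr1a* itself had 199 to 237 CPM in control and 185 to 209 CPM in *Bmpr1a*-cKO libraries (log2FC -0.16, standard error 0.064, FDR = 0.0692 by edgeR). Because somatic cells keep the gene and counts are not resolved by exon, this does not check the labels. CPM are counts relative to library size, after TMM normalization. The p-values set the genotype difference against the spread between pools, which are taken as independent although their litters are not known. In whole ovaries, fewer cells of a type and less RNA per cell cannot be told apart.

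To compare the genes with each other, CPM was divided by exon length in kilobases. In control ovaries *Cdh5* was the highest, at 17.6 ± 2.12 CPM per kb (SD, n = 4), and *Flt1* the lowest, at 1.37 ± 0.301. Between them, the control means in CPM per kb were 15.5 ± 0.970 for *Vegfa*, 12.9 ± 1.32 for *Eng*, 12.1 ± 0.664 for *Kdr*, 10.6 ± 0.948 for *Pecam1*, 5.95 ± 0.429 for *Tie1*, 5.42 ± 0.264 for *Acvrl1*, 3.46 ± 0.354 for *Tek* and 2.85 ± 0.281 for *Emcn*. The control libraries of neighbours in this order overlapped, except between *Vegfa* and *Eng*, between *Pecam1* and *Tie1*, between *Acvrl1* and *Tek* and between *Emcn* and *Flt1*. Among all genes tested with a known length, *Cdh5* stood at percentile 81.6 of the control level and *Flt1* at percentile 18.3. All 30 other endothelial markers examined were detected and tested, with a summed level of 730 to 792 CPM in control libraries.

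Of the 10 genes, 8 had a lower mean in *Bmpr1a*-cKO ovaries and 2 a higher one, with a median log2FC of -0.12, beside a median of -0.0042 and 50.6% of genes with a log2FC below 0 over all genes tested. Every difference was small. The 95% interval of the log2FC lay within 0.5 in either direction for all 10 genes, which is the fold threshold for a DEG, and the same was true of 64.2% of all genes tested. No gene had all *Bmpr1a*-cKO libraries on the same side of all control libraries, whereas 27.9% of all genes tested did, and none was a DEG (10.2% of all genes). At an unadjusted p below 0.05 the only gene was *Vegfa*, by edgeR, by DESeq2 and by limma-voom, and none of these tools gave an FDR below 0.05 for any of the 10. The plot of CPM in each library shows how far the genotypes overlapped.

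**Figure D1:**
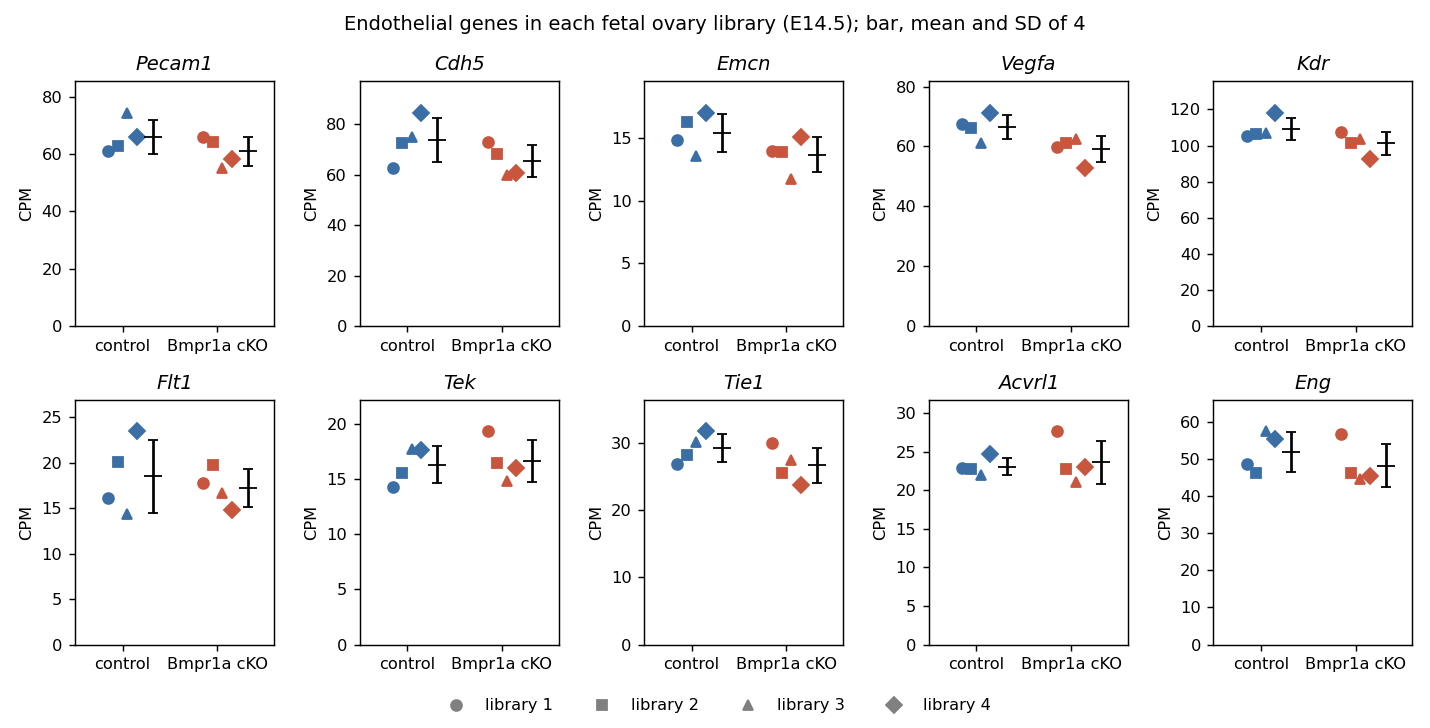
CPM (y axis, from 0, a separate scale for each gene) of the 10 endothelial genes in 4 control and 4 *Bmpr1a*-cKO libraries; points are libraries, with a symbol for each library number, and the bar beside them gives the mean and SD of 4. The genotypes overlap in every panel, and for *Vegfa* the overlap comes from control library 3, at 61.2 CPM.

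Genes of the endothelial surface and junctions came first. *Pecam1* (chromosome 11, 106654217 to 106750628) was counted at 61.0, 62.9, 74.4 and 66.1 CPM in control libraries 1 to 4 and at 66.1, 64.1, 55.3 and 58.3 CPM in *Bmpr1a*-cKO libraries 1 to 4. Control library 3 was the highest and *Bmpr1a*-cKO library 3 the lowest, and the other libraries were mixed. The log2FC was -0.12 (95% interval -0.28 to 0.048, FDR = 0.285 by edgeR). *Cdh5* (chromosome 8, 104101625 to 104144511) had 62.9, 72.6, 75.2 and 84.6 CPM in control and 73.2, 68.2, 59.9 and 60.9 CPM in *Bmpr1a*-cKO libraries. Control library 1 was below 2 of the *Bmpr1a*-cKO libraries and control library 4 above all of them. The log2FC of *Cdh5* was -0.18 (95% interval -0.37 to 0.014, FDR = 0.156 by edgeR). *Emcn* (chromosome 3, 137341067 to 137432185) had 14.8, 16.3, 13.6 and 17.0 CPM in control and 13.95, 13.8, 11.7 and 15.1 CPM in *Bmpr1a*-cKO libraries, with a log2FC of -0.17 (95% interval -0.40 to 0.052, FDR = 0.243 by edgeR). The noncoding gene *Gm29682* lies across *Cdh5* on the opposite strand but shares none of its exon bases.

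The ligand *Vegfa* (chromosome 17, 46016993 to 46032369) came closest to the threshold. It was counted at 67.6, 66.1, 61.2 and 71.2 CPM in control libraries and at 60.0, 61.1, 62.6 and 52.7 CPM in *Bmpr1a*-cKO libraries. Only control library 3 fell within the range of the *Bmpr1a*-cKO libraries. The log2FC was -0.18 (standard error 0.072, 95% interval -0.33 to -0.023), a level in *Bmpr1a*-cKO ovaries of 0.885 times that of control, with an FDR of 0.0782 by edgeR. The FDR was 0.0417 without control library 3 and 0.0283 when library size alone was used for scaling, and it was 0.229 without *Bmpr1a*-cKO library 4 (log2FC -0.13) and 0.697 when scaled to other endothelial markers (log2FC -0.056). The side of the threshold thus depended on these choices, while the direction was the same in all 21 alternatives.

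Neither VEGF receptor passed the test. *Kdr* (chromosome 5, 75932827 to 75978458) had 105, 106, 107 and 118 CPM in control and 108, 101, 103 and 92.5 CPM in *Bmpr1a*-cKO libraries. The control values were close together except for library 4, which stood above the rest. Its log2FC of -0.11 had the narrowest interval of the 10 genes (-0.25 to 0.023, FDR = 0.205 by edgeR). *Flt1* (chromosome 5, 147561604 to 147726011), the gene with the lowest level per length, had 16.1, 20.0, 14.3 and 23.4 CPM in control and 17.8, 19.7, 16.6 and 14.7 CPM in *Bmpr1a*-cKO libraries. The control libraries alone spanned the whole range of the *Bmpr1a*-cKO libraries. The log2FC was -0.12 (95% interval -0.41 to 0.18, FDR = 0.576 by edgeR), and without control library 4 it was 0.022.

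Among the TIE receptors, *Tek* (chromosome 4, 94739289 to 94874976) had 14.3, 15.6, 17.7 and 17.7 CPM in control and 19.3, 16.4, 14.9 and 16.0 CPM in *Bmpr1a*-cKO libraries, a log2FC of 0.020 (95% interval -0.20 to 0.24, FDR = 0.908 by edgeR). The means were 16.3 and 16.6 CPM and the libraries were interleaved. *Tie1* (chromosome 4, 118471191 to 118490061) had 26.9, 28.2, 30.2 and 31.7 CPM in control and 29.9, 25.4, 27.4 and 23.7 CPM in *Bmpr1a*-cKO libraries. Its log2FC was -0.15 (95% interval -0.33 to 0.037, FDR = 0.225 by edgeR), with *Bmpr1a*-cKO library 1 above 2 of the control libraries.

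For ALK1 signalling, *Acvrl1* (chromosome 15, 101128522 to 101145336) had 22.9, 22.8, 22.0 and 24.7 CPM in control and 27.7, 22.8, 21.1 and 23.1 CPM in *Bmpr1a*-cKO libraries. *Bmpr1a*-cKO library 1 was the highest of all and the rest lay close together. The log2FC was 0.025 (95% interval -0.16 to 0.21, FDR = 0.864 by edgeR), and it turned to -0.049 without that library. *Eng* (chromosome 2, 32646595 to 32682669) had 48.7, 46.4, 57.5 and 55.5 CPM in control and 56.9, 46.3, 44.6 and 45.5 CPM in *Bmpr1a*-cKO libraries, a log2FC of -0.11 (95% interval -0.31 to 0.079, FDR = 0.379 by edgeR). *Bmpr1a*-cKO library 1 again stood apart, and without it the log2FC of *Eng* was -0.20 and its FDR 0.0679. On the opposite strand, *Gm16031* shares 127 exon bases with *Acvrl1* and *Fpgs* shares 61 with *Eng*, so a small part of their counts is less certain if strand was not used.

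**Figure D2:**
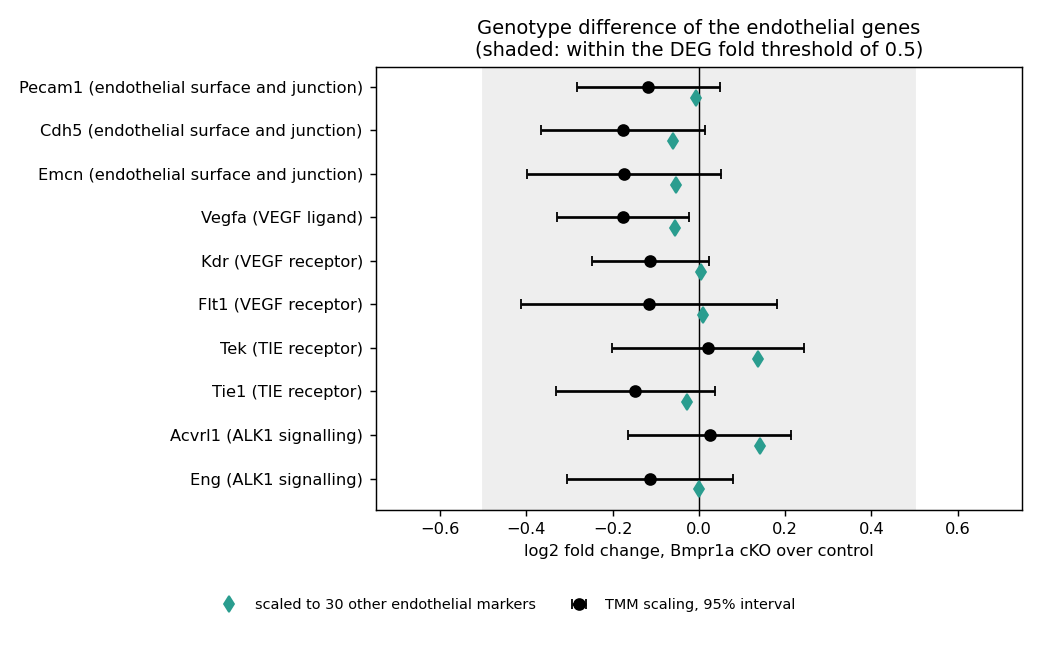
Log2 fold change of *Bmpr1a*-cKO over control ovaries (x axis) for the 10 endothelial genes, by role; black points and bars are the TMM-scaled estimates with 95% intervals, and green diamonds the estimates after scaling each library to 30 other endothelial markers. All 10 intervals lie inside the shaded range of 0.5 in either direction, only that of *Vegfa* leaves out 0, and the green diamonds centre near 0.

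The genes were also set against other endothelial RNA in the same libraries. VEGFA is secreted mainly by cells around a vessel, so for *Vegfa* this gives no level per endothelial RNA. When each library was scaled to the summed counts of the 30 other endothelial markers, none of which is among the 10, the median log2FC of the 10 genes was -0.0038, with 6 below and 4 above 0, and none had an FDR below 0.05 by edgeR. The same scaling moved the median of all genes tested to 0.113. Because raw counts are summed, the markers with the most counts weigh most in this scaling. Of a control mean of 759 CPM, *Ets1* made 172 CPM and *Tspan18* 103 CPM (log2FC -0.044 and -0.39 with TMM). Under scaling to 10 germ cell markers all 10 genes were below 0, with a median of -0.28 beside -0.19 for all genes. Raw counts were summed here too. *Dazl* made 327 CPM of a control mean of 879 CPM, and was itself higher in the cKO (log2FC 0.63, FDR = 0.00101 by edgeR with TMM). Standard errors were larger under this scaling, at 0.186 beside 0.0636 for *Kdr* and 0.199 beside 0.139 for *Flt1*.

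Receptor and ligand counts were also compared within each library, as ratios of raw counts that are not corrected for length. *Tek* counts were 0.557 ± 0.0227 of *Tie1* counts in control libraries, beside 0.627 ± 0.0577 in the cKO (mean ± SD of 4 libraries; two-sided exact permutation test, p = 0.114, adjusted p = 0.343 over 6 ratios). The ratio of *Eng* to *Acvrl1* was 2.26 ± 0.253 in control libraries, beside 2.04 ± 0.0562 in the cKO (exact permutation test, p = 0.114, adjusted p = 0.343). For *Vegfa* to *Kdr* it was 0.610 ± 0.0304 and 0.584 ± 0.0239 (exact permutation test, p = 0.229, adjusted p = 0.457), and the ratios of *Kdr* to *Flt1*, *Pecam1* to *Cdh5* and *Flt1* to *Vegfa* had larger p. The smallest p that 4 against 4 libraries allow is 0.0286. After adjustment over 6 ratios a single ratio could not reach 0.05 in this design, so the adjusted values say little. Each ratio overlapped between the genotypes.

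Other genes of the VEGF family were taken from a list written with earlier results of these data known. Of 11 tested, 3 were lower at an FDR below 0.05 (12.5% of all genes tested were) and 0 were higher (17.3%). For DEGs the shares of all genes were 4.06% lower and 6.11% higher. *Plxnd1*, a semaphorin receptor of vessels, was counted at 222, 213, 233 and 229 CPM in control and 207, 189, 185 and 171 CPM in cKO libraries (log2FC -0.25, FDR = 0.00753 by edgeR), without overlap. *Vegfb*, a ligand of FLT1, fell from 42.2 ± 2.66 to 36.3 ± 1.78 CPM (log2FC -0.21, FDR = 0.0340 by edgeR). *Vegfc*, the main ligand of the lymphatic receptor FLT4, was counted at 3.62, 4.52, 3.28 and 4.29 CPM in control and 2.27, 2.75, 2.83 and 2.93 CPM in *Bmpr1a*-cKO libraries. It was the only DEG of the list (log2FC -0.53, standard error 0.18, FDR = 0.0349 by edgeR), from 19 to 68 counts per library. With 1 library left out, *Vegfb* kept an FDR below 0.05 only without control library 4 or cKO library 3, and *Vegfc* only without control library 3. The highest FDR was 0.0776 for *Vegfb*, without control library 1, and 0.0911 for *Vegfc*, without control library 4. With DESeq2 *Vegfc* lost its call as well. *Pgf*, another ligand of FLT1, had 0.878 ± 0.214 and 1.41 ± 0.254 CPM (log2FC 0.72, FDR = 0.0660 by edgeR), from 9 to 26 counts. The receptor *Flt4* had a log2FC of -0.26 (FDR = 0.0644), and the co-receptors *Nrp2* and *Nrp1* -0.20 (FDR = 0.0693) and -0.098 (FDR = 0.417 by edgeR). Under scaling to germ cell markers or to other endothelial markers, 0 genes of the list had an FDR below 0.05 by edgeR, and the median log2FC was -0.27 and 0.025, beside -0.098 with TMM.

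Angiopoietin genes, whose products act through TEK, did not pass the test. Of the 5 tested genes of that pathway, 0 had an FDR below 0.05 by edgeR, with a log2FC of 0.16 for *Angpt1* (FDR = 0.520), the activating ligand, and -0.31 for *Angpt2* (FDR = 0.403), its context-dependent antagonist. *Angpt2* was low, at 1.35 ± 0.304 CPM (mean ± SD of 4 libraries) in control ovaries and 1.10 ± 0.0826 CPM in the cKO. At an unadjusted p below 0.05 there was 1 gene, *Foxo1* (log2FC 0.16), a transcription factor restrained by TEK signalling.

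In the ALK1 and endoglin pathway, the ligand genes *Gdf2* and *Bmp10* had 18 and 1 counts over all 8 libraries and were not tested. Of 17 tested genes, 5 were lower and 3 higher at an FDR below 0.05 (12.5% and 17.3% of all genes tested were). *Id1*, a transcriptional inhibitor induced by BMP, fell from 61.7, 57.8, 61.7 and 47.3 CPM in control to 30.9, 27.4, 34.0 and 33.2 CPM in *Bmpr1a*-cKO libraries (log2FC -0.86, standard error 0.095, FDR = 9.78e-06 by edgeR). This was the only DEG of the list, and *Id1* had an FDR below 0.05 in all 21 alternatives. *Id3* had a log2FC of -0.34 (FDR = 0.00160), and the feedback inhibitors *Smad6* and *Smad7* -0.31 (FDR = 0.00504) and -0.23 (FDR = 0.0256 by edgeR). *Smad9* fell with a log2FC of -0.45 (FDR = 0.0387). The higher genes were the receptors *Acvr2b* (log2FC 0.47, FDR = 1.70e-05) and *Acvr2a* (0.19, FDR = 0.0386) and the mediator *Smad1* (0.26, FDR = 0.0277 by edgeR). With 1 library left out, *Smad7* lost its call without control library 1 or without cKO libraries 3 or 4 (highest FDR 0.0865, without cKO library 4). *Smad9* kept its call only without cKO libraries 1 or 3 (highest FDR 0.150, without cKO library 2), *Smad1* only without control library 2 or cKO libraries 1 or 3 (0.117, without cKO library 2), and *Acvr2a* only without control library 3 or cKO library 1 (0.127, without control library 1). Over all 21 alternatives *Smad1* kept its call in 13 and *Acvr2a* in 9. Both lost it with upper-quartile scaling and with library size alone, and *Acvr2a* also with DESeq2. Scaling to germ cell markers gave 1 lower gene, *Id1*, and 0 higher genes, with a list median log2FC of -0.24 beside -0.075 with TMM. Scaling to other endothelial markers gave 1 lower, again *Id1*, and 4 higher genes, with a median of 0.044 and log2FCs of -0.23 for *Id3* (FDR = 0.0788), -0.19 for *Smad6* (FDR = 0.172), -0.12 for *Smad7* (FDR = 0.304) and -0.32 for *Smad9* (FDR = 0.182 by edgeR). Many ovarian cell types use these genes, and which cells carried the differences cannot be read from whole ovaries.

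Among the 30 other endothelial markers, 3 were lower and 2 higher at an FDR below 0.05, with a median log2FC of -0.13. Over all genes tested, 12.5% were lower and 17.3% higher. *Tspan18*, a tetraspanin, fell from 103 ± 1.58 to 78.9 ± 8.46 CPM (SD, n = 4 each; log2FC -0.39, FDR = 0.000745 by edgeR) and was called in all 21 alternatives. *Plvap*, the diaphragm protein of fenestrated endothelium, fell from 23.3 ± 1.61 to 18.4 ± 1.88 CPM (log2FC -0.34, FDR = 0.0126), and *Ramp2*, a co-receptor of adrenomedullin, from 26.9 ± 1.68 to 22.3 ± 1.54 CPM (log2FC -0.27, FDR = 0.0195 by edgeR). *Mmrn2*, an extracellular matrix protein of vessels, rose from 14.3 ± 2.24 to 18.4 ± 1.05 CPM (log2FC 0.37, FDR = 0.0219). The endothelial ETS factor *Erg* rose from 6.57 ± 1.14 to 8.75 ± 0.704 CPM (log2FC 0.42, FDR = 0.0328 by edgeR). With 1 library left out, *Ramp2* and *Mmrn2* each lost the call without control library 1 and without cKO libraries 2 or 3 (highest FDR 0.0679 for *Ramp2*, without cKO library 3, and 0.0772 for *Mmrn2*, without cKO library 2), and *Erg* kept it only without control library 2 or cKO library 1 (highest FDR 0.104, without control library 1). Scaling changed these counts. With library size alone 4 were lower and 0 higher, with scaling to germ cell markers 2 and 0 (list median log2FC -0.32), and with scaling to the 30 markers themselves 1 and 3 (median -0.0093). *Mmrn2* and *Erg* had log2FCs of 0.18 (FDR = 0.607) and 0.22 (FDR = 0.575 by edgeR) under germ cell marker scaling, and both lost the call with library size alone, *Erg* also with DESeq2. *Plvap* and *Ramp2* had log2FCs of -0.51 (FDR = 0.0801) and -0.45 (FDR = 0.133) under germ cell marker scaling and -0.22 (FDR = 0.127) and -0.16 (FDR = 0.295 by edgeR) under endothelial marker scaling. None of the 13 arterial and venous genes and none of the 10 pericyte and smooth muscle markers had an FDR below 0.05 by edgeR, with medians of -0.016 and -0.086 (0.0996 and 0.0327 when scaled to other endothelial markers), and 2 of the former (*Efnb2* and *Apln*) and 0 of the latter had an unadjusted p below 0.05.

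The 4 lymphatic markers moved in different directions. *Prox1*, the transcription factor of lymphatic identity, was counted at 4.52, 3.28, 5.06 and 3.91 CPM in control and 2.03, 1.56, 2.20 and 2.32 CPM in *Bmpr1a*-cKO libraries (log2FC -1.04, standard error 0.20, FDR = 0.00129 by edgeR). *Reln*, which encodes reelin, fell from 17.3 ± 0.665 to 10.8 ± 1.75 CPM (log2FC -0.68, FDR = 0.000285). *Lyve1*, a hyaluronan receptor also made by macrophages, rose from 3, 8, 4 and 5 counts in the control libraries to 28, 43, 58 and 72 counts in the *Bmpr1a*-cKO libraries, a log2FC of 3.41 (95% interval 2.71 to 4.12, FDR = 2.97e-06 by edgeR). *Pdpn* had a log2FC of -0.16 (FDR = 0.164). For *Prox1*, *Reln* and *Lyve1* the genotypes did not overlap, and an FDR below 0.05 was kept in all 8 fits with 1 library left out. Of all genes tested, 29.8% had an FDR below 0.05 in either direction and 27.9% did not overlap between the genotypes. *Prox1* and *Reln* are also expressed outside lymphatic vessels, and the cells of origin were not resolved.

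*Vegfa* is itself induced by hypoxia, and 18 genes of that pathway were examined beside it. Of these, 6 were higher at an FDR below 0.05 and 0 lower (17.3% and 12.5% of all genes tested were). The median log2FC was 0.083. *Pdk1*, which holds pyruvate back from the mitochondrion, rose from 53.4 ± 1.56 to 104 ± 4.74 CPM (SD, n = 4 each; log2FC 0.97, FDR = 3.78e-08 by edgeR). *Egln3*, a prolyl hydroxylase that acts on the hypoxia-inducible factors, rose from 6.55 ± 0.623 to 17.7 ± 4.12 CPM (log2FC 1.44, FDR = 6.50e-06), and the glucose transporter *Slc2a1* from 47.9 ± 2.21 to 76.6 ± 6.39 CPM (log2FC 0.67, FDR = 6.65e-06 by edgeR). The remaining called genes were *Egln1* (log2FC 0.37, FDR = 0.000655), *Pgk1* (0.32, FDR = 0.00377) and *P4ha1* (0.22, FDR = 0.0142 by edgeR). Scaling to germ cell markers left 2 of the 18 with an FDR below 0.05 and turned the median to -0.12. The hypoxia-induced genes *Adm* and *Ankrd37* had log2FCs of 0.013 (FDR = 0.962) and -0.041 (FDR = 0.933 by edgeR), beside -0.18 for *Vegfa*. Without a call too were *Bnip3* (log2FC 0.092), *Ldha* (0.043), *Higd1a* (0.080), *Ndrg1* (-0.070) and *Car9* (0.26). Whether hypoxia had a part in these values was not tested.

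**Figure D3:**
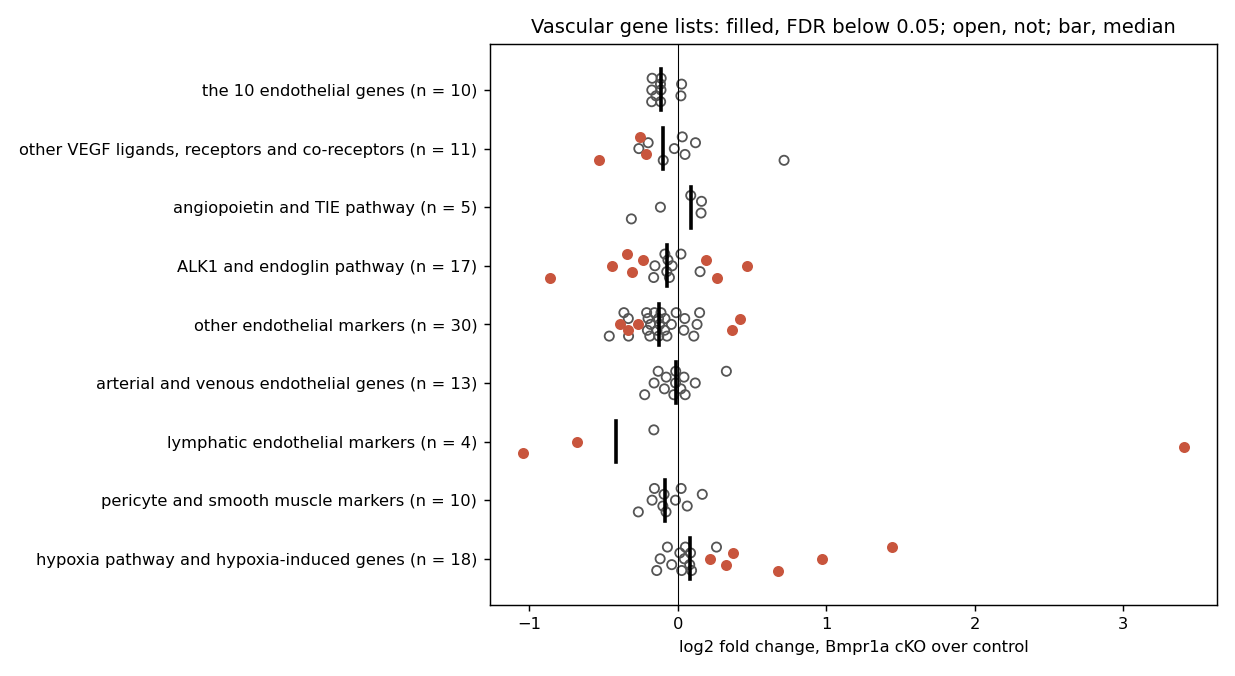
Log2 fold change of *Bmpr1a*-cKO over control ovaries (x axis) for each tested gene of 9 gene lists (rows); filled points have an FDR below 0.05 by edgeR, open points do not, and the vertical bar is the median of the list. None of the 10 endothelial genes is filled, and the point at 3.41 is *Lyve1*.

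Within each genotype, some libraries were high or low for several of the endothelial genes. *Bmpr1a*-cKO library 1 was the highest *Bmpr1a*-cKO library for 7 of the 10 genes and control library 4 the highest control library for 7 of 10. Control library 3 was the highest for 3 and the lowest for 4, control library 1 was the lowest control library for 5 and *Bmpr1a*-cKO library 3 the lowest of its genotype for 6. Averaged over the 9 genes without *Vegfa*, libraries lay between -0.11 and 0.14 (log2) from their genotype mean in control and between -0.094 and 0.15 in *Bmpr1a*-cKO ovaries, a spread similar in size to the differences between genotypes. Each gene's correlation with that average over the 8 libraries ran from 0.428 for *Emcn* to 0.967 for *Cdh5* among the 9, which are part of it, and was 0.322 for *Vegfa*. The summed level of the 30 other endothelial markers was also highest in control library 4 (792 CPM) and in *Bmpr1a*-cKO library 1 (764 CPM), and so were those of the pericyte and smooth muscle markers (376 and 379 CPM) and of 8 stromal markers (4408 and 4105 CPM). By correlation over 8 libraries of log2 CPM, as deviations from the genotype mean, with the mean of these 9 genes, the most similar of the other 14239 genes were *Ago1* (Pearson's r 0.981), *Trim2* (0.975), *Aldh1a3* (0.967), *Spats2l* (0.965) and *Hmbox1* (0.961), with Spearman's rho of 0.881 to 1. Without the 2 libraries farthest from the median r was 0.857 to 0.975. These genes were picked as the highest of all, so the values are a description without a test.

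**Figure D4:**
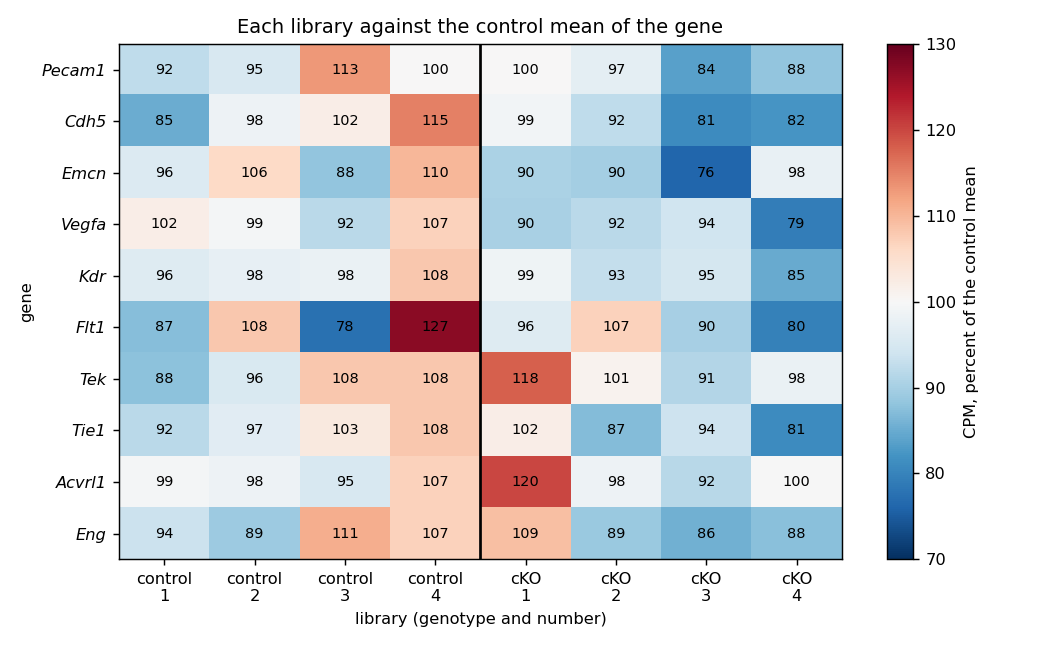
CPM of each endothelial gene (rows) in each library (columns) as a percent of the control mean of that gene, with the value printed in each cell and the colour scale from 70 to 130%. *Bmpr1a*-cKO library 1 has the highest value of its genotype for 7 genes, control library 4 that of its genotype for 7, and *Bmpr1a*-cKO libraries 3 and 4 are both below the control mean for all 10.

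Markers of some other cell types of the ovary differed between the genotypes. Over all genes tested, 12.5% were lower and 17.3% higher at an FDR below 0.05. The summed level of 8 macrophage markers was 38.4 to 48.8 CPM in control and 51.7 to 67.4 CPM in *Bmpr1a*-cKO libraries, with 5 of the 8 higher at an FDR below 0.05. Of 10 pregranulosa markers, 9 were lower, with a summed level of 1538 to 1846 CPM in control and 1296 to 1535 CPM in *Bmpr1a*-cKO libraries. The 30 other endothelial markers summed to 730 to 792 CPM in control and 650 to 764 CPM in *Bmpr1a*-cKO libraries, so here the genotypes overlapped. For 8 stromal markers, none of which had an FDR below 0.05 by edgeR (0 with an unadjusted p below 0.05), the sums were 3366 to 4408 and 3266 to 4105 CPM. The germ cell markers split, with 3 of 10 lower and 2 of 10 higher, and summed to 788 to 1035 CPM and 758 to 1198 CPM. Of 5 tested erythroid markers 1 was lower, and the adult globin genes *Hbb-bs*, *Hbb-bt*, *Hba-a1* and *Hba-a2* are listed at 0 in every library. Whether these zeros come from the tissue or from the counting was not tested. Of 6 mesonephric markers 2 were lower. Of 3 tested megakaryocyte markers 1, *Itgb3*, was higher, while 2 had a log2FC below 0 without a call. Scaled to germ cell markers, 0 macrophage markers (median log2FC 0.36, beside 0.56 with TMM) and 3 pregranulosa markers (median -0.48, beside -0.33) had an FDR below 0.05 by edgeR. Scaled to other endothelial markers, 5 macrophage markers were higher (median 0.69) and 3 pregranulosa markers lower (median -0.21). The part of these cell types in the values of the 10 endothelial genes was not tested.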

How the data were processed

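The 8 libraries were grouped by the genotype in their titles. Per the submitters' processing notes, reads were trimmed with Trimmomatic 0.39 and aligned to mm10 with STAR 2.5.2, and the authors deposited raw counts per gene symbol. The annotation and the strand setting of the counting are not given in the sources used here. The authors also deposited a normalized signal (CPM) for 14244 genes, of which the gene names alone served, as an alternative filter.

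Genes were filtered with filterByExpr and scaled with TMM. The genotypes were compared by the quasi-likelihood test in edgeR 4.0.16 (R 4.3.3; two-sided, Benjamini-Hochberg adjustment over 14249 genes). As in the study, a DEG had an absolute log2FC above 0.5 and an FDR below 0.05. The alternatives were the likelihood ratio test, DESeq2 1.42.0 and limma-voom (limma 3.58.1), other scalings and filters, *Rn45s* left out, the replicate number as a block, and each library left out in turn. Standard errors came from the F statistic, and the prior count for log2 CPM was 2. Positions and exon lengths came from GENCODE vM21 on mm10. The procedure was tested on simulated data. The counts of each gene limit its precision.

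The 10 genes are all named, as may be any VEGF, angiopoietin or ALK1 gene, and up to 5 genes of each other list with an FDR below 0.05, by smallest p. *Pdpn*, *Efnb2*, *Apln*, *Ets1*, *P4ha1*, *Adm*, *Ankrd37*, *Bnip3*, *Ldha*, *Higd1a*, *Ndrg1*, *Car9* and the globin genes were added after their values were seen. The genes and lists were chosen with earlier results of these data known. No 2 libraries of a genotype agreed within sampling noise (chi-square per degree of freedom of at least 3.15).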

Additional observations from a re-analysis of the deposited data

Results flagged for a closer look

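Among 20 groups of 4 libraries (10 genes in each genotype), 2 held a library far from the other three, judged by its gap to the nearest of the others as a share of the range. *Kdr* in control library 4 had 118 CPM, beside 105 to 107 CPM in the other control libraries (gap 0.849 of the range). *Eng* in *Bmpr1a*-cKO library 1 had 56.9 CPM, beside 44.6 to 46.3 CPM in the other *Bmpr1a*-cKO libraries (gap 0.865 of the range). The critical value for 4 libraries is 0.829, and chance flags about 1 in 20 such groups.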

How the results depend on the processing

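The number of the 10 genes with an FDR below 0.05 was 0 in edgeR and 1, *Vegfa*, under upper-quartile scaling and under library size alone (log2FC -0.21 and -0.23). With 1 library left out it ran from 0 to 1, the 1 being *Vegfa* without control library 3 (log2FC -0.22). The number of DEGs was 0 in every alternative, also at a fold threshold of 0.3. With the replicate number as a block, 0 of the 10 genes had an FDR below 0.05 and 4771 of all genes did, beside 4242 without it. Same-numbered libraries did not deviate together in every pair (correlations 0.198, 0.161, 0.108 and -0.0871), control libraries 1 and 2 alone correlated best with their own number, and the labels do not tie the numbers to litters, so the block is not a pairing.

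Of 210 values of single genes under alternatives, 14 changed sign, all of genes without a call. Scaling to other endothelial markers gave 0.0049 for *Kdr* and 0.0083 for *Flt1*. Scaling by the upper quartile, by library size alone and to germ cell markers gave -0.014, -0.032 and -0.13 for *Tek* and -0.0093, -0.027 and -0.13 for *Acvrl1*. With 1 library left out, the log2FC ran from -0.22 to 0.022 for *Flt1*, -0.048 to 0.066 for *Tek* and -0.049 to 0.071 for *Acvrl1*. The cause was not tested. Over all genes, 1781 of 4242 calls were lower with TMM, 2201 of 4289 with upper-quartile scaling, 2466 of 4337 with library size alone, 891 of 1311 with germ cell marker scaling and 601 of 3701 with scaling to other endothelial markers. Germ cell marker scaling shifted the median of all genes to -0.186 and library size alone to -0.0566. The lowest count of any of the 10 genes in a library was 112, and depth was not separated from the spread between pools.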
